A study of Mus musculus with 20 samples.

Results

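Aortic RNA of mice given HDL with 2 microRNA inhibitors was set against that of mice given HDL with 1 of them. The comparison holds 8 of the 20 libraries of the series, chosen by their labels alone: 4 mice received HDL + LNA92a + LNA489 (called dual here) and 4 received HDL + LNA92a. All were female Apoe-/- mice of the strain B6.129P2-Apoetm1Unc/J, which lack apolipoprotein E, are prone to atherosclerosis and were fed chow. At 9 weeks of age they underwent 5/6 nephrectomy, a removal of kidney tissue that models chronic kidney disease. Treatment was a retro-orbital injection, given once, 7 weeks after surgery, and the endothelium was collected 1 week later. HDL was dosed at 4 mg and each LNA at 20 mg/kg, so dual mice carried 40 mg/kg of LNA and LNA92a mice 20 mg/kg. LNA489 and the doubled LNA dose therefore cannot be told apart in this comparison, and no group received a control LNA. Total RNA came from endothelium lysed in qiazol, and each library stems from a separate mouse, so the spread between libraries is a spread between animals. Each library carries its group's name and its animal's number. Values below follow the order LNA92a 5, 12, 17 and 18, then Dual 8, 10, 15 and 21.

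A microRNA guides the silencing complex to messenger RNAs that pair with its seed, the bases 2 to 8, and lowers their amount or translation. A locked nucleic acid (LNA) inhibitor binds the microRNA and can release its targets. In endothelium, miR-92a-3p is known to restrain Klf2 and Klf4, which favour a quiescent vessel wall, and the integrin Itga5. There, miR-489-3p is less well described. HDL takes up cholesterol exported from macrophage foam cells and also carries microRNAs. Both mature sequences are shown because their seeds define which transcripts each inhibitor could release; capitals mark the seed, and the sequences are RefSeq's on GRCm38.p6.
miR-489-3p, chr6:3721922-3721944, minus strand: aAUGACACcacauauauggcagc
miR-92a-3p, chr14:115044476-115044496, plus strand: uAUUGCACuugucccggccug
The second miR-92a-3p copy, at chrX:52741854-52741874 on the minus strand, has the same mature sequence. The heptamers that pair with the seeds differ, GTGTCAT for miR-489-3p and GTGCAAT for miR-92a-3p. The miR-489 position lies within the span of Calcr (calcitonin receptor, chr6:3685680-3764714), and the plus-strand miR-92a copy lies within that of Mir17hg (chr14:115042879-115046727).

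Of 12 transcripts already reported as miR-489-3p targets, 4 hold such seed matches, and those of Dek, Ulk1 and Ptpn11 are shown because they are where the inhibitor could act. They are printed with the complement of the seed in capitals, as DNA of the transcript strand from GENCODE M21 on GRCm38; the coordinates cover the capitals. Dek encodes a chromatin protein, Ulk1 a kinase that starts autophagy and Ptpn11 the phosphatase SHP2.
Dek, chr13:47085358-47085364, minus strand: tttgccctcaaaGTGTCATcaatg
Dek, chr13:47085328-47085334, minus strand: tgttaactctaaGTGTCATagaaa
Ulk1, chr5:110784521-110784527, minus strand: ttgtgtttcactGTGTCATatcag
Ptpn11, chr5:121130805-121130811, minus strand: acgtgtttttggGTGTCATcattt
Such a heptamer occurs in 9.18% of the 21022 annotated 3′ UTRs searched, on the transcript strand. The other 8 reported targets, Tgfb2, Myd88, Smad3, Suz12, Spin1, Laptm4b, Jag1 and Prox1, held no such letters in the UTR searched.

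No gene was called between the dual and LNA92a mice. Of 16848 genes with a mean FPKM of at least 0.5, limma on the variance-stabilized values called 0 (0.0%) at an adjusted p under 0.05, and the smallest adjusted p was 0.876. At an unadjusted p under 0.05 there were 415 genes (2.46%), 244 higher in the dual mice (1.45%) and 171 lower (1.01%). In 299 genes (1.77%) every dual library exceeded every LNA92a library, and in 181 (1.07%) every dual library was below. The median standard error of a difference was 0.36 on the log2 scale, and at that error a difference of 0.75 is needed for an unadjusted p of 0.05. Limma's voom on recovered reads also called 0 genes, with 310 at an unadjusted p under 0.05 (148 higher and 162 lower), and sample weights called 0, with 902. Without LNA92a 12 a single gene was called, the small nucleolar RNA Snord13. Without Dual 21 the 415 genes at an unadjusted p under 0.05 became 273. All differences below are dual minus LNA92a on the variance-stabilized log2 scale, ± SE from limma, and each gene named had an adjusted p of 0.9999 unless another value is given. The plot of all genes shows where the named lists fall.

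**Figure D1:**
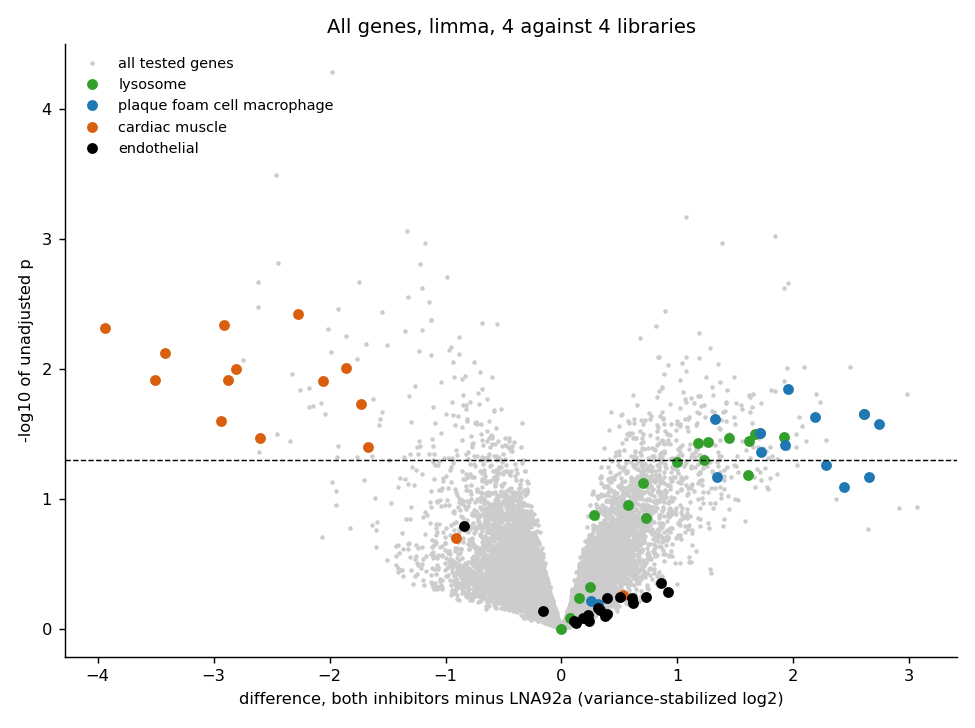
Difference between the dual and LNA92a mice for each of 16848 tested genes (x axis, variance-stabilized log2) against the -log10 of its unadjusted limma p (y axis). The dashed line marks an unadjusted p of 0.05. All 14 foam cell genes and 18 of 19 lysosome genes lie on the right, and all cardiac genes but Myh7 on the left. Endothelial genes lie near the bottom, and no gene passes adjustment.

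The libraries differed in makeup within and between groups. LNA92a libraries held 11.6 to 17.8 M (mega) assigned reads and dual libraries 13.3 to 21.4 M. The 18S ribosomal RNA took 19.1%, 6.07%, 22.4% and 18.2% of the LNA92a reads and 9.11%, 3.25%, 3.37% and 6.05% of the dual reads. In a 2-sided exact permutation test that difference had p = 0.0571, adjusted p = 0.137 over 8 library measures, where 4 against 4 mice cannot go below 0.0286. Only LNA92a 12 fell within the range of the dual libraries. Each 18S share has an exact 95% binomial interval at most 0.047 percentage points wide, which covers counting error only. Size factors, which scale each library's reads, ran from 0.53 to 1.18 in the LNA92a mice and 0.89 to 1.78 in the dual mice. Protein-coding genes took 51% to 79.7% of the LNA92a reads and 73.7% to 87.8% of the dual reads. Mitochondrial ribosomal RNA took 7.8% to 18.7% against 2.4% to 9.0%, and annotated microRNA genes 2.1% to 9.0% against 0.9% to 3.2%. The same permutation test gave each of these measures an adjusted p of 0.137. The microRNA share counts reads on annotated genes, and mature microRNAs were not measured here. Endothelial genes were present throughout, yet at very different levels. Pecam1, an endothelial adhesion molecule, had 3610, 3582, 50163 and 53800 normalized reads in the LNA92a mice and 29170, 18300, 3650 and 53935 in the dual mice. Normalized reads are recovered reads divided by the library's size factor. LNA92a 5, LNA92a 12 and Dual 15 were low, and the groups overlapped fully. Vwf, the von Willebrand factor of endothelium, had 1860, 4540, 36965 and 45733 against 20827, 19072, 2848 and 36224, low in the same 3 libraries (0.38 ± 1.40). Cdh5, the cadherin of endothelial junctions, differed by 0.61 ± 1.07. Of 18 endothelial markers, 16 were higher in the dual mice, none at an unadjusted p under 0.05, with a median difference of 0.36; it ranged from -0.16 to 0.91 when single libraries were left out.

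**Figure D2:**
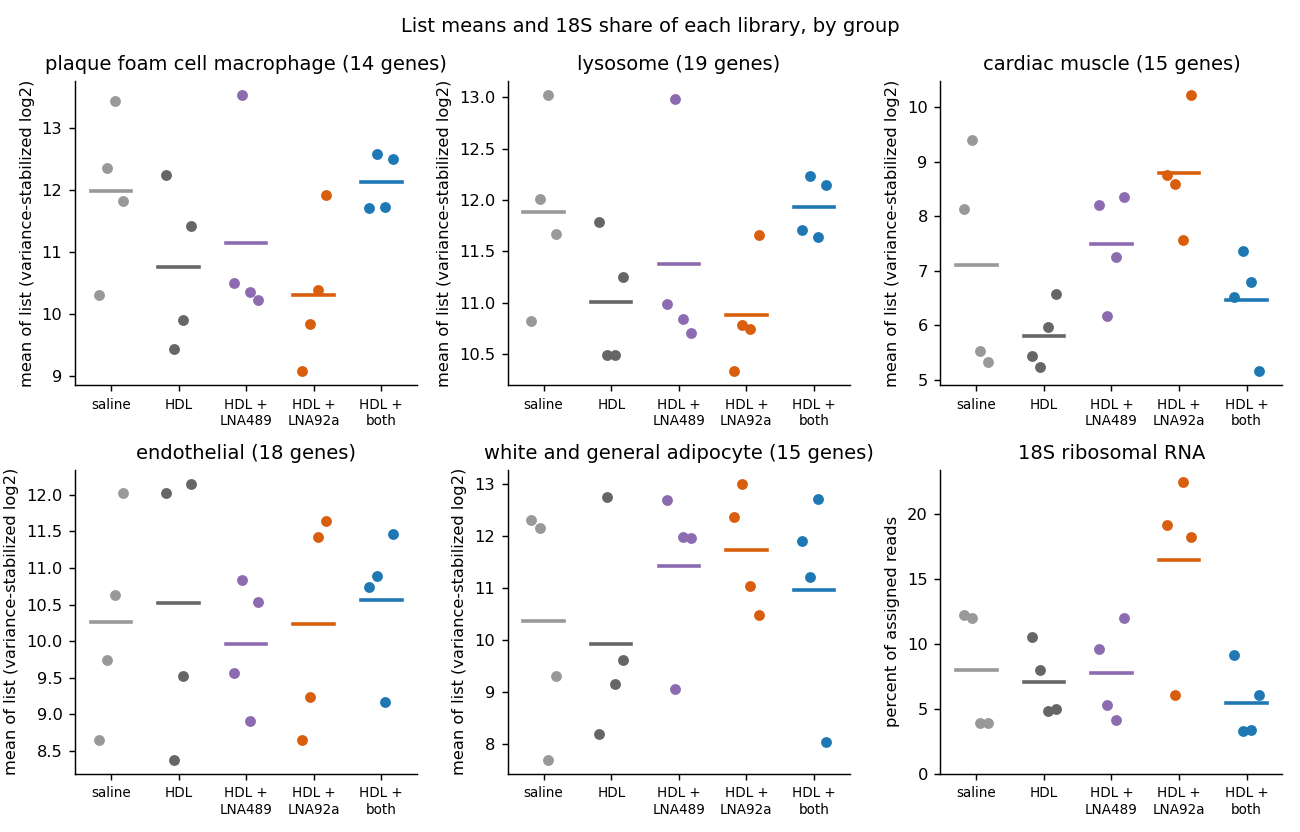
Mean of 5 gene lists (variance-stabilized log2) and the percent of assigned reads from 18S ribosomal RNA in each of the 20 libraries (points) with group means (bars). Foam cell and lysosome means of the dual mice lie in a narrow band at 11.64 or above, and cardiac means of the LNA92a mice lie at 7.56 or above.

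Genes of plaque foam cell macrophages, the lipid-laden macrophages of atherosclerotic lesions, were higher in the dual mice. All 14 listed genes had a positive difference, with a median of 1.94 against -0.02 over all tested genes. None was called, and 8 had an unadjusted p under 0.05 where 1.45% of all genes did so in that direction. The list mean was 9.08, 9.85, 10.40 and 11.93 in the LNA92a mice and 11.72, 12.59, 11.73 and 12.50 in the dual mice. LNA92a 18 lay inside the dual range and the other 3 LNA92a libraries below it. The same mean ran from 10.31 to 13.43 in saline mice, from 9.45 to 12.25 with HDL alone and from 10.23 to 13.54 with HDL + LNA489, so the dual means lay within the range of the saline mice. The summed FPKM of the list was 266 to 1471 in the LNA92a mice and 1604 to 3453 in the dual mice. These sums carry a shift of all genes, whose median difference on log2(FPKM + 0.1) was 0.45, so their gap is not of this list alone. In bulk RNA, fewer cells of a type and less RNA per cell cannot be told apart.

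Gpnmb, a membrane glycoprotein of lipid-loaded macrophages, had 1135, 3668, 7686 and 31933 normalized reads in the LNA92a mice and 30943, 45305, 24853 and 61074 in the dual mice, a difference of 2.74 ± 1.14. Only LNA92a 18 reached the dual values. Trem2, the lipid-sensing receptor of foam cells, had 64.2, 210, 294 and 983 against 985, 1593, 946 and 2124, a difference of 2.19 ± 0.89. Cd68, a macrophage scavenger-receptor glycoprotein, had 483, 687, 379 and 1755 against 1513, 4598, 2754 and 3131, a difference of 1.96 ± 0.72. Here again LNA92a 18 alone overlapped the dual mice. Acp5, an acid phosphatase, was the list member whose groups did not overlap, with 676, 1550, 898 and 1894 against 2231, 4115, 2178 and 3829 and a difference of 1.33 ± 0.54. Atp6v0d2, a subunit of the proton pump (2.61 ± 1.05), Lgals3, which encodes galectin-3 (1.93 ± 0.87), Ctsd, which encodes cathepsin D (1.71 ± 0.73), and the lipid chaperone Fabp5 (1.72 ± 0.79) complete the 8. Cd9 (0.25 ± 0.50) and Lpl (0.31 ± 0.67), which other cells also express, differed least.

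The count of 8 foam cell genes rested on few libraries. It was 1 without LNA92a 5, 3 without LNA92a 12, 4 without LNA92a 17, 3 without Dual 10 and 2 without Dual 21, while the median stayed between 1.60 and 2.48. With the 18S share of each library as a covariate, a setting chosen after seeing the data, 0 of the 14 had an unadjusted p under 0.05 and the median was 1.36. LNA92a 12, whose 18S share of 6.07% lay in the dual range, had a foam cell mean of 9.85, below each dual library. This is 1 library, and the part of the 18S share in the foam cell and lysosome values was not tested.

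Lysosomal genes, which digest the lipid and protein that macrophages take up, showed the same order. Of 19 tested, 18 were higher in the dual mice, 9 at an unadjusted p under 0.05 and none called, with a median of 1.18. Atp6v0d2 and Ctsd belong to both lists. The lysosome list mean was 10.34 to 11.66 in the LNA92a mice and 11.64 to 12.24 in the dual mice. It ran from 10.83 to 13.02 in saline mice, from 10.49 to 11.79 with HDL alone and from 10.70 to 12.98 with HDL + LNA489. The dual means lay within the ranges of saline and of HDL + LNA489. Groups did not overlap for 5 members, Ctsb, Ctsz, Hexa and Laptm5 among them, where 1.77% of all genes did so in that direction. Ctsb, the protease cathepsin B, had 11297, 17510, 14543 and 41876 normalized reads against 49359, 76519, 42947 and 76244, a difference of 1.67 ± 0.72. LNA92a 18 and Dual 15 came closest to each other.

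Among the other lysosomal genes, Lipa, the acid lipase that frees cholesterol from its esters, differed by 1.44 ± 0.63. Ctss, a protease of antigen-presenting cells, differed by 1.92 ± 0.84, and Psap, the precursor of the saposins, by 1.62 ± 0.71. Lamp1 and Lamp2, membrane proteins of every lysosome, differed by 0.57 ± 0.34 and 0.25 ± 0.33. Tfeb, the transcription factor of lysosome formation, differed by 0.08 ± 0.33. Acp5, Cd9, Ctsd, Ctsb, Ctsz, Hexa, Lamp1, Pltp, Npc1, Spns2, Nos3 and Cyp2t4 share exon sequence with another annotated gene, and since the strand of counting is unknown their reads are uncertain. The 9 genes became 0 without LNA92a 5, 0 without LNA92a 12, 2 without LNA92a 17, 1 without Dual 10, 1 without Dual 21 and 0 with the 18S covariate, which left a median of 0.54.

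**Figure D3:**
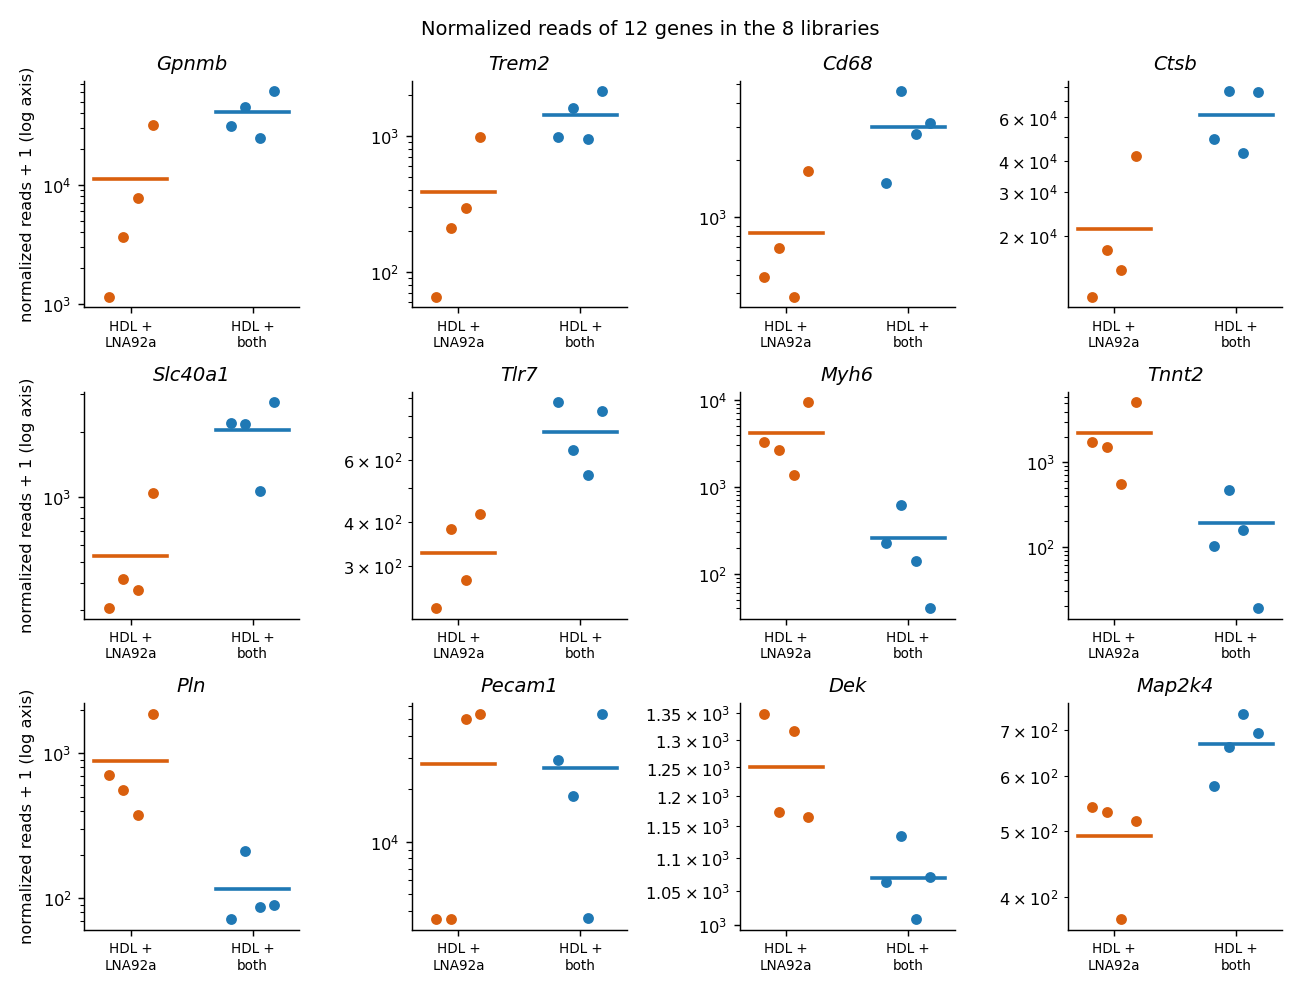
Normalized reads plus 1 (log axis) of 12 genes in the 4 LNA92a mice and the 4 dual mice (points) with group means (bars). Tlr7, Slc40a1, Ctsb and Map2k4 are higher in each dual mouse, Myh6, Tnnt2, Pln and Dek are lower in each, and Pecam1 overlaps fully.

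Genes of the HDL receptor, cholesterol efflux and sphingosine 1-phosphate list leaned the same way by less. Of 21 tested, 18 were higher in the dual mice, with a median of 0.54 that stayed between 0.47 and 0.63 when single libraries were left out. The list mean was 9.33, 9.44, 9.26 and 9.70 in the LNA92a mice and 9.79, 10.16, 9.72 and 10.06 in the dual mice, so that the groups came within 0.02 of each other without overlapping. The same mean ran from 9.24 to 10.52 in saline mice, from 9.39 to 9.87 with HDL alone and from 9.36 to 10.39 with HDL + LNA489. The dual means thus lay within the ranges of saline and of HDL + LNA489. With the 18S covariate 14 of 21 were higher and the median was 0.34. Pltp, which moves phospholipid onto HDL, was the 1 member with an unadjusted p under 0.05. Its normalized reads were 1514, 2800, 1237 and 2600 against 3689, 6065, 3815 and 4224, a difference of 1.17 ± 0.48 with no overlap.

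The cholesterol exporters Abcg1 and Abca1 differed by 1.34 ± 0.69 and 0.82 ± 0.48, and in both genes LNA92a 18 reached the dual range. Nceh1, which hydrolyses cholesterol esters, differed by 1.28 ± 0.62, and Soat1, which forms them, by 1.19 ± 0.60. Npc1, the cholesterol carrier of the lysosomal membrane, had 1705, 1116, 1294 and 1778 against 2153, 2042, 2019 and 2351. Its groups did not overlap, and its difference was 0.55 ± 0.33. The receptors of sphingosine 1-phosphate, a lipid carried by HDL, did not share this order: S1pr1, the endothelial one, differed by 0.17 ± 0.86 and S1pr2 by 0.11 ± 0.41. Spns2, which exports that lipid from endothelium, was lower by value (-0.57 ± 0.29). Scarb1, the HDL receptor, had 268, 536, 256 and 356 against 345, 2481, 707 and 286. Dual 10 stood apart, and that library also held adrenal RNA: the 8 adrenal cortex genes averaged 12.00 there and 5.56 to 6.43 in the other 7 libraries. Scarb1 is itself on that adrenal list and enters its mean, and the part of adrenal RNA in the Scarb1 value was not tested. Apoe itself, the gene mutated in all these mice, still gave 134, 74.4, 207 and 428 normalized reads against 338, 384, 343 and 652 (1.08 ± 0.51). Gene-level reads do not check the Apoe deletion.

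Macrophage genes outside the foam cell list divided. Of 15 markers of resident adventitial macrophages, 7 were higher, and the median difference was -0.06, or 0.42 without Dual 21. It ran from -0.475 to 0.485 when single libraries were left out, lowest without LNA92a 17. Its 3 members with an unadjusted p under 0.05 encode the chains of complement C1q, which macrophages of several kinds make. C1qc had 1843, 3550, 1390 and 3041 against 4739, 9728, 6174 and 6284, with no overlap and a difference of 1.49 ± 0.53. C1qb had 2069, 3733, 1327 and 4312 against 5126, 10900, 6058 and 8758, likewise apart, and C1qa differed by 0.92 ± 0.40. Hmox1, the heme-degrading enzyme, had 378, 430, 320 and 970 against 1264, 2989, 1087 and 1337, a difference of 1.61 ± 0.61 without overlap. It was the 1 gene of 22 on the oxidative stress, heme and hypoxia list with an unadjusted p under 0.05, and the median of that list was -0.01.

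The 12 protein-coding genes with the smallest p among those higher in the dual mice included several with known macrophage roles. Slc40a1, the iron exporter ferroportin (chr1:45908068-45926523), had 306, 419, 371 and 1049 against 2195, 2176, 1065 and 2742, a difference of 1.94 ± 0.68. LNA92a 18 and Dual 15 nearly met. Tlr7, the endosomal sensor of single-stranded RNA (chrX:167304929-167330558), had 226, 382, 273 and 422 against 874, 640, 544 and 828, a difference of 1.08 ± 0.36 without overlap. Aif1, which encodes the macrophage protein IBA1, had 18.9, 80.3, 52.2 and 108 against 176, 238, 127 and 162, a difference of 1.18 ± 0.40. The smallest p among these 12 belonged to Kcna2, a voltage-gated potassium channel (chr3:107101146-107115005). It had 102, 182, 99.2 and 236 against 792, 812, 346 and 879, a difference of 1.96 ± 0.55. Each dual library was above each LNA92a library, with Dual 15 the lowest of them. In saline mice Kcna2 ran from 203 to 1652, across the whole dual range.

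Ms4a14, a membrane protein of the family that holds CD20, had 24.5, 45.7, 19.1 and 74.6 against 270, 300, 124 and 263 (1.92 ± 0.55). Prmt6, an arginine methyltransferase, had 47.2, 69.3, 81.8 and 56.3 against 145, 127, 141 and 138 (0.84 ± 0.28). Its dual values were close together and above each LNA92a library. Prmt6 ran from 66.8 to 164 in saline mice, from 113 to 198 with HDL alone and from 27.0 to 111 with HDL + LNA489. The dual values thus lay within the ranges of saline and of HDL alone. Prmt6 shares exon sequence with another annotated gene, and its reads are uncertain. Jade3, a subunit of histone acetyltransferase complexes, differed by 0.68 ± 0.22. The amino acid transporters Slc38a6 and Slc43a2 differed by 1.35 ± 0.47 and 1.25 ± 0.45, the latter with overlapping groups and shared exons. Tmem26 differed by 2.09 ± 0.72 and Ccdc148 by 2.48 ± 0.86. Hist1h4n, a histone H4 gene with near-identical copies elsewhere, had 0 to 2.54 normalized reads against 11.2 to 52.4, and its assignment is uncertain (1.28 ± 0.42).

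Heart muscle genes stood at the other end. Of 15 cardiac genes, 14 were lower in the dual mice and 13 had an unadjusted p under 0.05, where 1.01% of all genes did so in that direction. None was called, and the median was -2.60. The list mean was 8.76, 8.59, 7.56 and 10.23 in the LNA92a mice and 6.52, 7.35, 6.80 and 5.16 in the dual mice, with no overlap. The summed FPKM of the list was 91.7 to 986 in the LNA92a mice and 5.01 to 176 in the dual mice. In the other groups the mean ran from 5.23 to 6.58 with HDL alone, from 6.17 to 8.35 with HDL + LNA489 and from 5.33 to 9.41 with saline. Those of saline and of HDL + LNA489 overlapped the LNA92a mice. No single library decided the count, which ran from 9 to 14 when each was left out. With the 18S covariate 0 members had an unadjusted p under 0.05 and the median was -1.63. LNA92a 12, whose 18S share lay in the dual range, had a cardiac mean of 8.59, above each dual library. The part of the 18S share in the cardiac values was not tested.

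Myh6, the alpha heavy chain of cardiac myosin (chr14:54941921-54966927), gave the widest difference of all tested genes, -3.93 ± 1.23. Its normalized reads were 3258, 2678, 1378 and 9376 against 226, 622, 140 and 39.0. Tnnt2, which encodes cardiac troponin T, had 1724, 1538, 552 and 5124 against 102, 474, 156 and 17.6, a difference of -3.42 ± 1.14. In both genes LNA92a 18 was highest and Dual 21 lowest. The groups did not overlap, though for Tnnt2 LNA92a 17 and Dual 10 nearly met. Actc1, cardiac actin, overlapped through LNA92a 17 and Dual 10: it had 1561, 2012, 614 and 5554 against 237, 677, 124 and 0.76 (-3.50 ± 1.26). Pln, the inhibitor of the calcium pump of muscle (chr10:53337667-53345987), had 704, 553, 372 and 1877 against 70.4, 211, 86.5 and 89.4, a difference of -2.44 ± 0.66. Pln is not on the cardiac list but on the smooth muscle list, where it was the 1 gene of 15 with an unadjusted p under 0.05. Myh6 and Pln share exon sequence with other annotated genes, as do Tnni3, Myl3, Myl4, Nppa and Myh7 of the cardiac list.

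The remaining cardiac genes with an unadjusted p under 0.05 ran from -1.67 ± 0.76 for Myl3 to -2.94 ± 1.21 for Myl7, both myosin light chains. Ryr2, the calcium release channel, differed by -2.06 ± 0.74, and Tnnc1, troponin C, by -2.27 ± 0.69. Exceptions were Nppa, the atrial natriuretic peptide, at -0.91 ± 0.68, and Myh7, the beta heavy chain, at 0.53 ± 0.86, both at low read numbers. Ankrd1, a stress-responsive ankyrin protein of heart muscle, had 604, 358, 228 and 1642 against 81.6, 108, 76.4 and 0 (-2.91 ± 0.90). Outside the cardiac list but among the 12 lower genes with the smallest p were, beside Pln, further muscle genes. Fhl2, a LIM-domain protein of the sarcomere, differed by -1.75 ± 0.49, and Rrad, a small GTPase that restrains calcium channels, by -1.20 ± 0.34. Mybphl differed by -2.62 ± 0.78, the muscle ubiquitin ligase Trim54 by -1.93 ± 0.57 and Apobec2 by -1.86 ± 0.59. Rrad, Mybphl and Trim54 share exon sequence with another gene. Pcp4l1 differed by -1.35 ± 0.43, with Dual 10 overlapping LNA92a 17.

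Only Sec22a, a protein of traffic between the endoplasmic reticulum and Golgi, and C1d, a cofactor of the nuclear exosome, were neither muscle genes nor genes of unsure role in that set. Sec22a had 308, 253, 256 and 352 against 225, 163, 124 and 167 (-0.69 ± 0.21), without overlap. C1d had 459, 393, 337 and 422 against 287, 276, 246 and 235 (-0.56 ± 0.17), likewise apart. Of the skeletal muscle genes 10 of 13 were lower with a median of -0.31, and Eno3, an enolase of muscle, was the 1 with an unadjusted p under 0.05 (-1.57 ± 0.64).

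Lists of the fat and connective tissue around the aorta leaned lower without any member at an unadjusted p under 0.05. The 15 fibroblast genes were all lower (median -0.87), as were the 10 mesothelial genes (-0.83) and the 21 genes of oxidative phosphorylation (-0.62). Of the white and general adipocyte genes 14 of 15 were lower (-0.74), and of the brown adipocyte genes 10 of 11 (-0.90). Dual 21 was the lowest library here. Its adipocyte mean was 8.04 against 11.20 to 12.72 in the other dual mice and 10.48 to 13.01 in the LNA92a mice. Without Dual 21 the adipocyte median was 0.22, the brown adipocyte median 0.23, the fatty acid oxidation median 0.16, the oxidative phosphorylation median 0.00, the fibroblast median -0.12 and the mesothelial median -0.35. Ucp1, the uncoupling protein of brown fat, shows the spread: it had 24252, 30232, 5853 and 3478 normalized reads against 21939, 10565, 4389 and 256.

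Several signalling lists sat near the median of all genes, and others leaned to 1 side. The flow response and nitric oxide list had 8 of 17 higher (median -0.02), interferon response 10 of 20 (-0.01), antigen presentation 10 of 16 (0.06) and endothelial adhesion and chemokine 6 of 14 (-0.04), none with a member at an unadjusted p under 0.05. The TGF-beta and endothelial-to-mesenchymal transition list leaned lower, with 7 of 28 higher (-0.21). Tgfbr1, a TGF-beta receptor, differed by 0.79 ± 0.48. Nos3, the nitric oxide synthase of endothelium, had 149, 377, 2825 and 3393 against 1878, 1337, 286 and 4800 (0.61 ± 1.25), low in the same 3 libraries as Pecam1. The cell cycle list leaned higher, with 21 of 25 higher (0.30, or 0.15 without Dual 21). So did the T and NK cell list, with 13 of 14 (0.44, or 0.12 without Dual 21). Cholesterol synthesis had 6 of 17 higher (-0.16). Hes1, a target of Notch, was lower in each dual mouse, with 172, 105, 118 and 167 against 84.9, 98.3, 30.6 and 76.4 (-0.76 ± 0.26). It was the 1 gene of 25 on the angiogenesis and Notch list with an unadjusted p under 0.05.

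**Figure D4:**
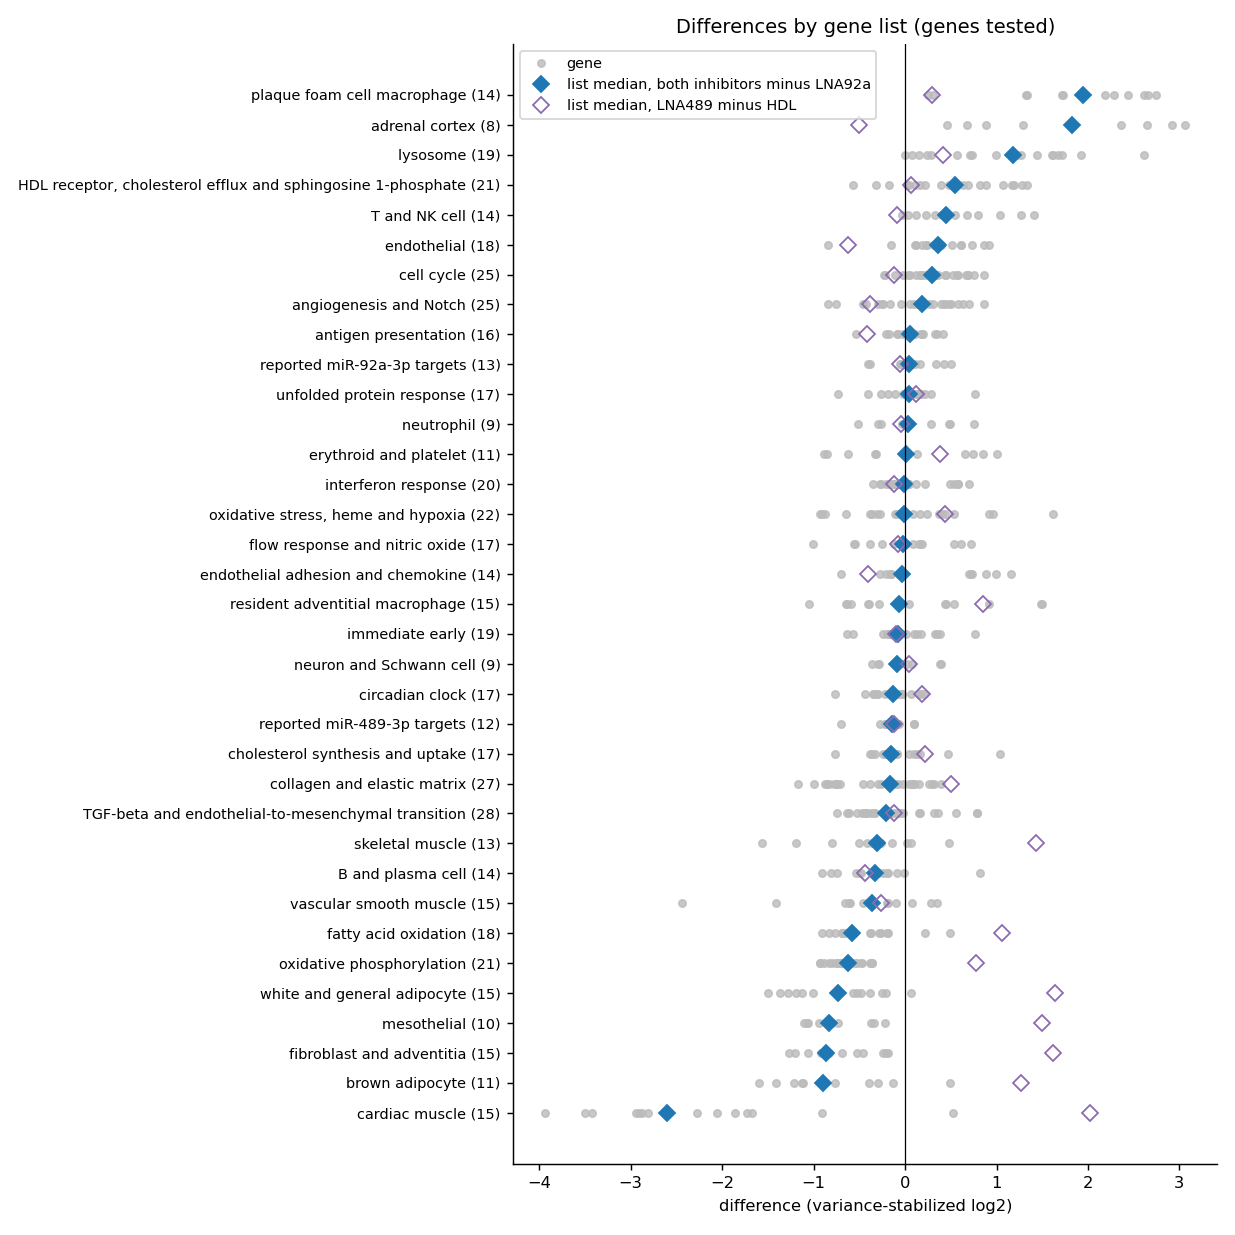
Differences of list members (gray points) and list medians (filled diamonds) between dual and LNA92a mice, beside the medians of LNA489 minus HDL (open diamonds), on the variance-stabilized log2 scale for 35 lists. Foam cell (1.94) and lysosome (1.18) medians lie to the right and the cardiac median (-2.60) to the left, where LNA489 minus HDL gave 0.30, 0.41 and 2.02.

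Reported targets of miR-489-3p were mostly lower by value in the mice that received its inhibitor. Of 12 reported targets 2 were higher in the dual mice, none had an unadjusted p under 0.05, and the median was -0.15. Dek, with both matches printed above, had 1348, 1173, 1315 and 1164 normalized reads against 1062, 1134, 1007 and 1070, each dual library below each LNA92a library. Its difference was -0.22 ± 0.19, turning to 0.27 on log2(FPKM + 0.1), a scale on which all genes shift by 0.45. Ulk1, with 1 match, had 1025, 906, 1113 and 887 against 984, 999, 1043 and 1184 (0.10 ± 0.24). Ptpn11 differed by -0.10 ± 0.27, with overlapping groups. Among targets with no match in the UTR searched, Tgfb2, the growth factor, differed by -0.21 ± 0.40, Myd88, the adaptor of Toll-like receptors, by -0.15 ± 0.30, and Prox1, a transcription factor of lymphatic endothelium, by -0.70 ± 0.77. Dek, Tgfb2, Myd88, Prox1 and Suz12 share exon sequence with another annotated gene.

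The differences were also set against seed matches in 3′ UTRs. Among 12938 coding genes tested, the median difference was -0.03 both for the 11622 without a miR-489-3p heptamer and for the 1163 with 1. It was 0.00 for the 153 with 2 or more. The shares of higher genes were 44.9%, 44.2% and 49.0%. Genes with more matches had longer UTRs, with a median of 1035 bases without a match and 3794 bases with 2 or more. An 8-base match, which adds an A opposite base 1, left the median at -0.03. The microRNAs themselves and protein levels were not measured here.

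**Figure D5:**
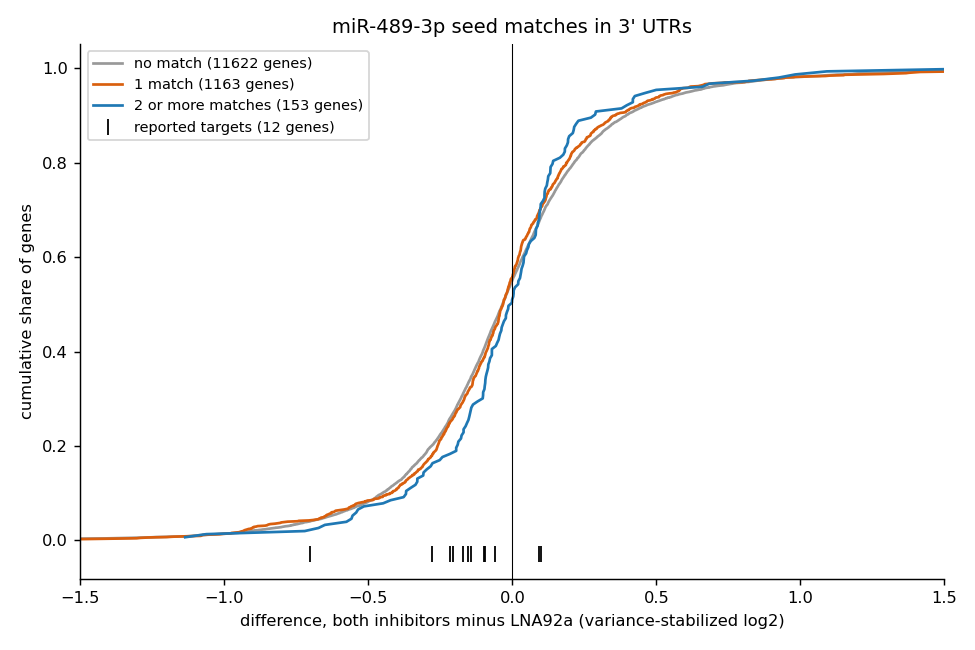
Cumulative share of genes (y axis) by difference between dual and LNA92a mice (x axis, variance-stabilized log2) for 11622 genes without a miR-489-3p seed match, 1163 with 1 and 153 with 2 or more; ticks mark the 12 reported targets. The curves lie close together, and 10 of 12 ticks fall below 0.

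Both groups received LNA92a, so targets of miR-92a-3p are a reference here. Of 13 reported targets 7 were higher, with a median of 0.04. Map2k4, a kinase that activates JNK, was the 1 with an unadjusted p under 0.05, where 1.45% of all genes did so in the higher direction. Its normalized reads were 540, 531, 371 and 516 against 579, 661, 738 and 692, a difference of 0.43 ± 0.17 without overlap. Its UTR holds 2 miR-92a-3p matches, shown because Map2k4 had the smallest p of this list. Matches are common there, in 10 of 13 members, and a release from miR-92a-3p was not tested.
Map2k4, chr11:65690580-65690586, minus strand: cccagacaccatGTGCAATaagac
Map2k4, chr11:65690182-65690188, minus strand: tttcttcaccaaGTGCAATagatt
Klf2, the flow-responsive factor, had 1255, 1101, 2211 and 3994 against 2126, 1402, 905 and 4033 (-0.04 ± 0.46). Klf4 differed by -0.38 ± 0.54, Plpp3, which degrades lysophosphatidic acid, by -0.02 ± 0.44, and Itga5, an integrin, by 0.50 ± 0.93. Itga5 was lowest in LNA92a 5, Dual 15 and LNA92a 12, the 3 libraries poor in Pecam1. The primary transcript Mir17hg had 75.5, 25.4, 64.4 and 107 against 89.4, 91.0, 13.1 and 142 (0.11 ± 0.46); it shares exon sequence with another gene. Calcr was not tested, with 0 to 5 reads per library.

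By value, LNA489 added to HDL alone gave another order. There too LNA489 cannot be told apart from the LNA dose it brought, as no group received a control LNA. LNA489 against HDL (4 mice each) shares no library with the comparison above, and limma called 0 genes there as well (0.0%). Of 30 genes with an unadjusted p under 0.05 in both, 9 had the same direction and 21 the opposite. Across all 16848 genes, which are not independent replicates, the differences had r = -0.30. The cardiac median was -2.60 in the dual mice against LNA92a and 2.02 in LNA489 against HDL. The foam cell medians were 1.94 and 0.30, and the lysosome medians 1.18 and 0.41.

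The differences of these 2 comparisons are called LNA489 effects here, with the added LNA dose included. The test of the difference between the 2 effects called 0 genes (0.0%). It had 530 at an unadjusted p under 0.05 (3.15%) and a smallest adjusted p of 0.930. Voom, sample weights and the exclusion of any 1 of the 16 libraries also called 0. Ankrd1 had a difference of -2.91 ± 0.90 with LNA92a present and 1.93 without, which leaves -4.84 ± 1.28 between them (adjusted p = 0.930). Hrc, a calcium-binding protein of the muscle reticulum, had -1.86 with LNA92a present and 2.15 without. The difference between the effects was -3.31 ± 0.85 for Mlf1 and -2.63 ± 0.60 for Pcp4l1. In the positive direction Prmt6 gave 1.63 ± 0.40, Elp6 1.55 ± 0.52, Cyp2t4 1.36 ± 0.39 and Bbc3, the cell-death gene PUMA, 1.21 ± 0.38. Prmt6 combined 0.84 with LNA92a present and -0.79 without.

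Short structural RNAs were grouped by annotated biotype after seeing the data. Small nucleolar and small nuclear RNAs divided evenly in direction. All 12 tested genes annotated as scaRNA were lower (median -0.26), 1 of them at an unadjusted p under 0.05. Of 107 tested small nucleolar RNAs 51 were higher and 56 lower (median -0.02), and of 89 small nuclear RNAs 44 were higher and 45 lower (-0.01), beside -0.02 for all genes. At an unadjusted p under 0.05, 9 of the nucleolar and 7 of the nuclear RNAs were lower and 1 of each higher, where 1.01% of all genes were lower and 1.45% higher. The smallest p of the comparison belonged to Gm25911, annotated as a microRNA gene, with 6974, 3022, 10232 and 5783 normalized reads against 2548, 827, 1235 and 1838. Its difference was -1.98 ± 0.38 (adjusted p = 0.876), and each dual library lay below each LNA92a library. Gm25911 ran from 1523 to 3145 in saline mice, from 1524 to 2830 with HDL alone and from 1756 to 3464 with HDL + LNA489. Snord13 had 219, 4.23, 88.7 and 190 against 0, 0, 0 and 6.88, with LNA92a 12 beside the dual mice. Its difference was -2.46 ± 0.56, and without LNA92a 12 it was -3.13 ± 0.45 (adjusted p = 0.0387). Snord13 ran from 4.30 to 36.4 in saline mice, from 6.5 to 43.0 with HDL alone and from 0 to 47.8 with HDL + LNA489. In Snord13 as in the 18S share, LNA92a 12 was the lowest of its group. The part of library makeup in these values was not tested.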

How the data were processed

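RNA was measured in 20 libraries of 5 groups of 4 mice; 8 libraries form this comparison. The authors deposited variance-stabilized values on a log2 scale for 20442 genes and FPKM with gene lengths for 32081. DESeq2 1.18.1, featureCounts 1.15.29, STAR 2.5.3a, cutadapt 1.16 and FastQC stand, without roles, in the submitters' processing notes beside build GRCm38.p5. The strand of counting is not given in the sources used here, so genes sharing exons with another are uncertain. Per the labels, libraries used a Nugen Ovation kit.

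Whole reads were recovered from the deposited FPKM and lengths (100% of checked values within 0.1 of a whole number); they gave depth, size factors and voom input. FPKM divides by all reads, ribosomal ones included, so it is lower across genes where 18S is high. The variance-stabilized scale compresses low genes: 10 to 20 normalized reads moves it from 5.24 to 5.63, and 100 to 200 from 7.05 to 7.85.

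Limma 3.58.1 (R 4.3.3) fitted 5 group means over 20 libraries with 15 residual degrees of freedom and a mean-variance trend, for genes with a mean FPKM of at least 0.5, with 2-sided p-values adjusted by Benjamini-Hochberg over 16848 genes at a threshold of 0.05. The fit was tested on simulated data. Library measures had exact permutation tests (scipy 1.17.1). No count test was the main result, since the deposited values are not counts.

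Of 577 genes in 35 lists, 552 were tested. The text names up to 12 protein-coding genes per direction with a mean FPKM of at least 1 (called genes by size, then smallest p), up to 4 per direction for the difference of effects, list members by smallest p, and 15 fixed genes. Genes outside these were chosen after their values were seen. Members and lists were chosen with earlier results of these data known. Annotation is GENCODE M21; the longest 3′ UTR per gene was searched. Alternatives covered scale, centring, weights, filters, covariates, voom and each library left out. Animal numbers are not shared between groups, so no block was fitted. Some members of the lists are counted but not reported by name here.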

Additional observations from a re-analysis of the deposited data

Results flagged for a closer look

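In groups of 4, a library was singled out when its gap to the nearest other was too large a part of the group's range by Dixon's 95% critical value, which chance passes in about 1 of 20 groups; 9 of 154 groups passed it. Adrenal cortex genes averaged 12.0 in Dual 10, where the other dual libraries lay between 5.73 and 6.43. The resident adventitial macrophage mean was 8.61 in Dual 21 against 10.23 to 10.52, and the oxidative stress, heme and hypoxia mean was 9.47 there against 10.42 to 10.53. Dual 15 had a flow response and nitric oxide mean of 9.31 against 9.81 to 9.86. LNA92a 12 had 17.8 M assigned reads against 11.6 to 12.1 M in the rest of its group.

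Among the named genes, on the variance-stabilized log2 scale, Kcna2 was 8.54 in Dual 15 against 9.66 to 9.81, and Ms4a14 was 7.29 there against 8.19 to 8.36. Both values still exceeded those of the LNA92a mice. Ankrd1 was 4.21 in Dual 21, where it had no read, against 6.76 to 7.13. Pcp4l1 was 7.08 in Dual 10 against 5.95 to 6.06.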

How the results depend on the processing

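No setting but 1 called a gene; without LNA92a 12 it was 1, and leaving out single libraries gave 0 to 1. Genes at an unadjusted p under 0.05 (415) numbered 864 in a fit of the 8 libraries alone, 902 with sample weights, 171 among genes with a mean FPKM of at least 5 (fewer genes tested), and 273 to 451 when single libraries were left out. With the 18S covariate they numbered 188, 49 higher and 139 lower. On log2(FPKM + 0.1) and log2(FPKM + 1) they were 1931 and 1765, with 1880 and 1716 higher, since all genes shift by 0.45 and 0.34 there; centring on the median gave 413 (260 higher), voom 310 (148 higher) and sample weights 562 higher of theirs, and genes whose groups do not overlap went from 480 to 1641 and, centred, 493. The foam cell count of 8 was 0 with the 18S covariate and 1 to 12 with single libraries left out. The lysosome count of 9 was 14 in the 8 libraries alone, 16 on both FPKM scales, 0 with the 18S covariate and 0 to 11 with single libraries left out; its median of 1.18 was 1.71, 1.66 and 0.54 on those FPKM scales and with that covariate. The cardiac count of 13 was 8 among genes with a mean FPKM of at least 5 and 0 with the 18S covariate. Dek turned to 0.27 and 0.26 on the FPKM scales. The difference of the LNA489 effects called 0 genes in each setting run. Beyond the values tied to a setting's construction, the cause was not tested.

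No paired analysis was possible because animal numbers are not shared between groups.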
